A study of Mus musculus with 4 samples.

Results

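*Grb7*, *Crhbp* and *Slamf6* are 3 of the 22911 genes named on the arrays, and they are followed here across tumor mesenchymal stroma cells (MSCs) and tumor CD8+ T cells of Wt and *Sipa1*-/- mice. They were selected on their large fall in *Sipa1*-/- MSCs among genes above the median signal of the MSC arrays. The fall in MSCs is therefore a description of the choice. The selection did not use the levels in CD8+ T cells. The 3 genes and the lists read beside them were, however, chosen with earlier results of these data known.

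All 4 conditions came from subcutaneous *Bcr-Abl*+ tumors, each mouse having received 15000 *Bcr-Abl*+ hematopoietic progenitor cells in Matrigel. Hosts were C57BL/6Ncr mice aged 8 weeks, either wild type or *Sipa1* knockout, with 5 mice of each genotype in the experiment and tumors collected on day 12. MSCs were sorted as cells negative for GFP, CD45, Ter119 and CD31, and CD8+ T cells as GFP-negative cells positive for TCRb and CD8. GFP marked the injected leukemia cells. Each of the 4 conditions was hybridized in one color to 1 array. Whether the RNA of the mice was pooled is not given in the sources used here. No difference below has a replicate check, no test or p-value was computed, and the number of arrays limits the precision.

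*Grb7* encodes an SH2 adaptor protein that binds activated receptor tyrosine kinases such as Erbb2. *Crhbp* encodes a secreted binding protein that sequesters corticotropin-releasing hormone and urocortin and is best known from brain and pituitary. *Slamf6*, also called Ly108, encodes a homophilic receptor of the SLAM family on lymphocytes, which signals through the adaptor SAP and marks memory-like and progenitor-exhausted CD8+ T cells.

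In the RefSeq annotation of GRCm38.p6, *Grb7* (gene ID 14786) spans chr11:98446834-98455373, *Crhbp* (gene ID 12919) chr13:95431376-95444831 and *Slamf6* (gene ID 30925) chr1:171917458-171948958. The files give probes by transcript accession and hold no probe sequence or probe position, so the exon each probe reads is not known here. *Grb7* and *Crhbp* each had 1 probe and *Slamf6* had 2.

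Because the genes were selected on a shared change, the RefSeq sequence of the 250 bases before the listed transcript start of *Crhbp* (minus strand, chr13:95444832-95445081) and of *Slamf6* (plus strand, chr1:171917212-171917461) is shown 5′ to 3′, with the letters of the E-box pattern CANNTG, which basic helix-loop-helix factors bind, in capitals. The listed start of *Slamf6* lies a few bases inside the gene span given above, so the end of its window overlaps that span.
Crhbp: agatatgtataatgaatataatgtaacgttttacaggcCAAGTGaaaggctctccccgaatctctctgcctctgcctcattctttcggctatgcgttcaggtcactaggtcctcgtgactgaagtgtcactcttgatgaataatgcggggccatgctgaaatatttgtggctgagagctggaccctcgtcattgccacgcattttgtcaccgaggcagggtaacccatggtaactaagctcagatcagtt
Slamf6: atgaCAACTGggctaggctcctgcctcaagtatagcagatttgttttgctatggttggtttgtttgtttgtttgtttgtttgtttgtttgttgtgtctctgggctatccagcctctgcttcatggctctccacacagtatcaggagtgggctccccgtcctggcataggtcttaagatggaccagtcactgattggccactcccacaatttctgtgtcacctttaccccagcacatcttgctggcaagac

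Each sequence held 1 match to the E-box pattern, which reads the same pattern on both strands, 207 bases before the listed transcript start in *Crhbp* and 241 bases before that in *Slamf6*. The pattern occurs in 66.2% of the 32851 RefSeq promoter windows of this length, so a match is common. Neither sequence matched, on either strand, the 10-letter palindrome of EBF1 (0.779% of windows), TGGGAA for IKZF1 (21.6%), TGTGGT for RUNX (14.1%), AGATAA for GATA (9.99%), TATAAA (12.4%) or the ETS core GGAA (93.5%), which TGGGAA contains. These are matches of letters in a window and not binding sites.

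The knocked-out gene was checked first. *Sipa1*, a GTPase-activating protein for Rap1, was lower on both *Sipa1*-/- arrays for both of its probes. The log2 ratios were -1.25 and -1.59 for MSCs and -1.67 and -2.05 between the CD8+ T arrays. Both probes stayed well above background on the *Sipa1*-/- arrays, with intensities of 6319 and 1266 in MSCs and 5006 and 988 in CD8+ T cells. Spots well above background made up 60.3% to 65.3% of the 59305 noncontrol spots of an array and 0 spots were saturated. Signals are given as log2 over the array's 75th percentile, called the level, and differences as log2 ratios of *Sipa1*-/- over Wt or as folds. A level is compared only for the same probe or gene between arrays. A gene was measured where a probe passed the study's quality flags on both arrays of a pair, and a fold of 2 was the limit for counting genes.

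The sorted cells were checked against their markers. In MSCs the pericyte and fibroblast receptor *Pdgfrb* had levels of 1.74 in Wt and 3.76 in *Sipa1*-/-, while the probe of *Pdgfra* failed a quality flag there. The leukocyte antigen *Ptprc*, which encodes CD45, was well above background on both MSC arrays although the sort excluded CD45+ cells, at 0.76 in Wt and -0.55 in *Sipa1*-/-. Granulocyte and erythroid marker genes were bright there too. The log2 of their summed levels was 9.46 and 9.26 in Wt MSCs and 9.62 and 9.36 in *Sipa1*-/- MSCs. For granulocyte genes it was 9.27 in Wt and 8.36 in *Sipa1*-/- CD8+ T cells. CD8+ T arrays carried *Cd3e* at 4.15 and 4.31 and *Cd8a* at 3.46 and 3.57, in Wt and *Sipa1*-/-.

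*Grb7* was high on the Wt MSC array alone. Wt MSCs had a level of 3.50 and *Sipa1*-/- MSCs one of -1.34, and the CD8+ T cells were at -1.70 in Wt and -2.37 in *Sipa1*-/-, from background-corrected intensities of 5330, 182, 128 and 72.9. The ratio between the MSC arrays was -4.84, or 28.5-fold lower in *Sipa1*-/-. The scanner's own error model puts 0.20 on this log2 ratio, which covers the spot reading and not the variation between mice. The remaining signal of *Sipa1*-/- MSCs was 2.05-fold above that of *Sipa1*-/- CD8+ T cells, whereas in Wt mice MSCs were 36.7-fold above CD8+ T cells.

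*Crhbp* had the same order of conditions with a deeper low end. Its levels were 2.70, -2.0, -3.66 and -5.68 on the arrays of Wt MSCs, *Sipa1*-/- MSCs, Wt CD8+ T cells and *Sipa1*-/- CD8+ T cells, from intensities of 3071, 115, 32.8 and 7.35. The spot was well above background on 3 of the 4 arrays and not well above background on that of *Sipa1*-/- CD8+ T cells. In MSCs the ratio was -4.70, or 26.0-fold lower in *Sipa1*-/-. Wt MSCs exceeded Wt CD8+ T cells 82.1-fold, and *Sipa1*-/- MSCs exceeded *Sipa1*-/- CD8+ T cells at least 11.3-fold, a bound set by the lowest signal counted as well above background on the dimmer array.

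*Slamf6* was high on 3 arrays and low on that of *Sipa1*-/- MSCs. Its first probe had levels of 3.10 in Wt MSCs, -1.47 in *Sipa1*-/- MSCs, 2.76 in Wt CD8+ T cells and 2.34 in *Sipa1*-/- CD8+ T cells, from intensities of 4054, 165, 2799 and 1909. The second probe had 0.55, -4.13, 1.11 and 0.49, from intensities of 693, 26.3, 896 and 531. In MSCs the probes gave log2 ratios of -4.58 and -4.68, which differ by 0.11 and average -4.63. Both probes thus placed *Sipa1*-/- MSCs lowest, 14.0- and 24.5-fold below *Sipa1*-/- CD8+ T cells. They disagreed on which Wt array was higher, Wt MSCs being 1.27-fold above Wt CD8+ T cells by the first probe and 1.47-fold below by the second. The order of the 3 higher arrays was therefore not the same for both probes.

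**Figure D1:**
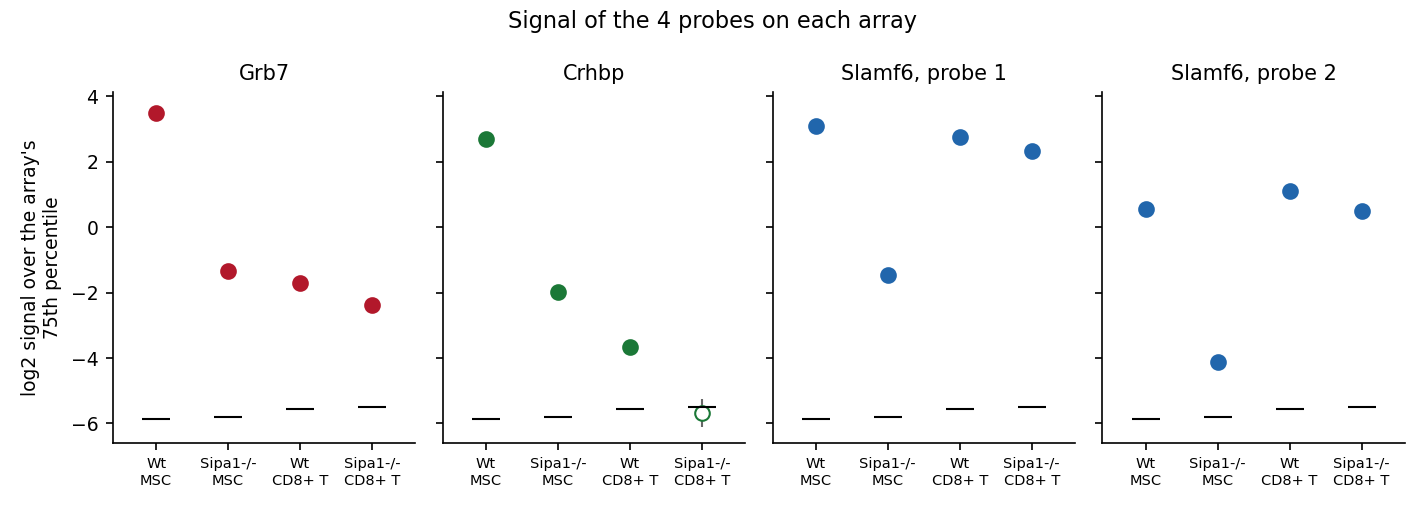
Levels of the 4 probes of *Grb7*, *Crhbp* and *Slamf6* on the 4 arrays, 1 point per array, on a log2 scale over each array's 75th percentile. Vertical bars, mostly hidden by the points, are the scanner's error, dashes mark the lowest level counted as well above background on that array, and the open point was not well above background. *Grb7* and *Crhbp* are high on the Wt MSC array only, while both *Slamf6* probes are low on the *Sipa1*-/- MSC array only.

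Between the cell types of Wt mice, 17.3% of 14225 genes measured on both arrays were at least 2-fold higher in MSCs, and *Grb7* and *Crhbp* were among them while *Slamf6* was not. In *Sipa1*-/- mice the share was 21.9% of 14300 genes. *Grb7* was past this limit there by a small margin, at a log2 difference of 1.03, *Crhbp* passed it only as a bound, and *Slamf6* had a mean difference of -4.21 over its probes.

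In MSCs, 11.3% of 15298 measured genes were at least 2-fold lower in *Sipa1*-/- and 19.3% at least 2-fold higher. Higher genes made up 63.1% of those past the limit, 54.1% with the arrays shifted to equal medians and 74.1% with the authors' scaling. All of *Grb7*, *Crhbp* and *Slamf6* were among the lower genes, as their selection fixed. In the ranking that chose them, over 7414 genes above the median signal without clone or predicted names, they ranked 1, 3 and 5. *Dntt* at -4.71 and *Igll1* at -4.69 ranked between them and were not taken, so rank alone did not define the 3. Next after *Slamf6* were *Lef1* at -4.61, *Bfsp2* at -4.60, *Fcrla* at -4.59, *Vpreb2* at -4.58 and *Pou2af1* at -4.48. *Slamf6* was separated from *Lef1* by less than the scanner's error of a single ratio. *Dntt* encodes the terminal transferase of early lymphocytes, and *Igll1* and *Vpreb2* encode chains of the surrogate light chain of the pre-B-cell receptor.

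**Figure D2:**
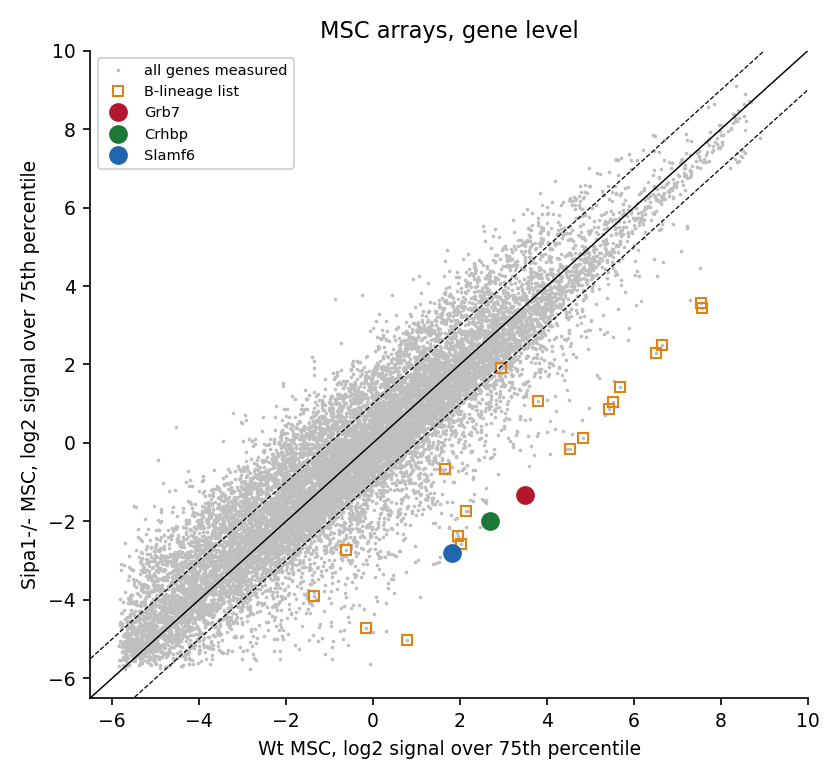
Gene levels on the *Sipa1*-/- MSC array against the Wt MSC array, log2 over the 75th percentile of each array, for 15298 genes (grey), with the line of equality and dashed lines at 2-fold. *Grb7*, *Crhbp* and *Slamf6*, selected on this fall, lie at the lower edge of the cloud. The 19 measured genes of the B-lineage list (open squares) all lie on or below the lower dashed line.

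All 3 genes were also on the lower side in *Sipa1*-/- CD8+ T cells, by amounts that differed between them. *Grb7* had a ratio of -0.67, or 1.59-fold lower. *Slamf6* had -0.52 as a mean, from -0.42 and -0.62 for its probes. *Crhbp* was at least 3.56-fold lower, with a measured ratio of -2.02 that includes the signal not well above background. The scanner's error on that ratio was 0.45, and the bound does not allow for it. Of 14339 genes measured in CD8+ T cells, 1.40% were at least 2-fold lower and 2.66% were higher by as much. The higher share was 65.5% of those past the limit, 52.5% with equal medians, 76.3% with the authors' scaling and 50.5% with normexp, a background model. *Crhbp*, which was not measured by the flags on both arrays, was past this limit as a bound, and *Grb7* and *Slamf6* were not past it. Ratios as low as that of *Grb7* or lower were held by 2.49% of all genes measured in CD8+ T cells, and as low as that of *Slamf6* by 3.81%. For *Grb7* the CD8+ T ratio exceeded its scanner error of 0.21, with no replicate to give the spread between mice.

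The genes whose 4 levels ran most like those of each gene were sought by the root mean square (RMS) difference of centered log2 levels, over 4 arrays and up to 7931 genes. This measure uses the MSC arrays of the selection and is a description. Every RMS difference of *Crhbp* takes its signal in *Sipa1*-/- CD8+ T cells as measured, although that was not well above background, so the sizes and the order of these differences are approximate. Read this way, *Crhbp* lay closest to *Igll1*, with an RMS difference of 0.08, followed by *Gm525* at 0.18, *Vpreb2* at 0.26, *Vpreb1* at 0.31 and *Rnase12* at 0.33. *Igll1* had levels of 4.82, 0.13, -1.35 and -3.56 in Wt MSCs, *Sipa1*-/- MSCs, Wt CD8+ T cells and *Sipa1*-/- CD8+ T cells. Between the CD8+ T arrays, where *Crhbp* has only its bound of at least 3.56-fold lower, *Igll1* had a ratio of -2.21, *Rnase12* of -2.23, *Vpreb1* of -2.04, *Gm525* of -1.94 and *Vpreb2* of -1.73.

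*Grb7* ran most like *Mzb1* at 0.36, *Dntt* at 0.37, *Tifa* at 0.54 and *Mpzl2* at 0.55. *Mzb1* encodes an endoplasmic reticulum protein of B and plasma cells. Its levels were 4.96, 0.88, 0.33 and 0.06 in the same order of arrays. *Grb7* and *Crhbp* differed by an RMS of 1.07, with the limit on *Crhbp* given above.

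*Slamf6* had other neighbors in pattern. They were *Sit1* at 0.19, *Ifi209* at 0.31, *Ppp1r16b* at 0.33, *Ptprcap* at 0.34 and *Pik3cd* at 0.41. *Sit1* encodes a transmembrane adaptor of lymphocytes, *Ptprcap* a protein associated with CD45, and *Pik3cd* the leukocyte PI3-kinase delta catalytic subunit. *Sit1* had levels of 1.83, -2.50, 2.02 and 1.90. *Slamf6* and *Grb7* differed by an RMS of 2.64 and *Slamf6* and *Crhbp* by 3.63 with the same limit on *Crhbp*, so that *Slamf6* stood apart from both on the CD8+ T arrays.

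The SLAM family list held 15 other receptors, adaptors, kinases and phosphatases of this pathway, of which 11 were measured in MSCs. In *Sipa1*-/- MSCs 7 were at least 2-fold lower, against 11.3% of all measured genes, and 0 at least 2-fold higher. The median ratio was -1.23 against 0.04 over all measured genes, and -0.80 with normexp. Among the receptors, *Slamf7* had levels of 1.94 in Wt and -2.29 in *Sipa1*-/-, a ratio of -4.23. *Cd48*, the ligand of the receptor encoded by *Cd244a*, had 2.75 and -0.36, a ratio of -3.10. *Ly9* had a ratio of -2.85, *Cd244a* of -1.23 and *Slamf9* of -1.19. The 2 probes of *Cd244a* differed, and the gene is counted by their mean. The dimmer had -2.77 in Wt and -4.76 in *Sipa1*-/-, while the brighter had 0.32 and -0.15, short of 2-fold. *Cd84* at -0.83 did not reach the limit, and *Slamf8*, a receptor of myeloid cells, was on the other side at 0.82. *Slamf1* was well above background with 1 of 2 probes on the Wt MSC array and with 0 on the *Sipa1*-/- MSC array, at least 3.10-fold lower in *Sipa1*-/- by that probe.

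Downstream of the receptors, *Inpp5d*, which encodes the phosphatase SHIP1, had a ratio of -3.02 and *Ptpn6*, which encodes SHP-1, of -1.56. The widely expressed *Ptpn11* (SHP-2) had 0.31 and the kinase gene *Fyn* 0.70. The SAP gene *Sh2d1a* went the other way from most receptors. Of its 3 probes 0 were well above background in Wt MSCs and 3 in *Sipa1*-/- MSCs, at least 1.14-, 1.74- and 3.09-fold higher. The probe with the bound of 1.14-fold failed another quality flag on the *Sipa1*-/- MSC array. On the CD8+ T arrays its level was 2.05 in Wt and 2.01 in *Sipa1*-/-.

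On the CD8+ T arrays 14 of the 15 were measured, 0 were past the limit in either direction, and the median ratio was 0.01. The lowest ratio was -0.27, held by *Slamf9*, so *Slamf6* at -0.52 lay below each of them. *Slamf7* had 0.24, *Cd48* -0.14 and *Ly9* -0.05. A further list held 14 genes of progenitor-exhausted and memory T cells, among which *Slamf6* is usually counted. All 14 were measured in CD8+ T cells, with a median of 0.02. There 0 were 2-fold lower and 1 was 2-fold higher, against 1.40% and 2.66% of all measured genes. The higher one was *Pdcd1*, which encodes the checkpoint receptor PD-1, at 1.10, named here after its value was seen. In MSCs 5 of 13 measured were at least 2-fold lower, including *Lef1* and the interleukin 7 receptor gene *Il7r* at -4.16. A further 3 were at least 2-fold higher. Over all measured genes these shares were 11.3% and 19.3%.

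The system around *Crhbp* was largely not well above background. Of the ligand genes, *Crh*, *Ucn* and *Ucn3* were below that mark on all 4 arrays, and *Ucn2* was on the *Sipa1*-/- MSC array only, at least 1.40-fold higher than in Wt MSCs. The receptor gene *Crhr2* was well above background on all 4 arrays, with ratios of 0.24 for MSCs and 0.31 for CD8+ T cells. *Crhr1* had 1 of 2 probes well above background on the MSC arrays, with levels of -5.32 in Wt and -4.92 in *Sipa1*-/-. Further downstream, *Pomc*, the precursor of corticotropin, had a ratio of -0.24 between the MSC arrays and -0.26 between the CD8+ T arrays. The glucocorticoid receptor gene *Nr3c1* had 0.58 and 0.21 in turn, and the corticotropin receptor gene *Mc2r* was not well above background anywhere. Of 9 list genes besides *Crhbp*, 4 were measured in MSCs and 3 between the CD8+ T arrays, and 0 were past the limit in either. Of all measured genes, 11.3% were past it downward and 19.3% upward in MSCs, and 1.40% and 2.66% in CD8+ T cells.

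The partners of *Grb7* lay mostly on the opposite side from it. Of 21 genes of its adaptor family, receptors and binding partners, 18 were measured in MSCs, where the limit was passed upward by 10, against 19.3% of all measured genes, and downward by 0, with a median of 1.21. The paralog *Grb10* had levels of -2.11 in Wt and 0.27 in *Sipa1*-/-, a ratio of 2.38, and *Grb14* had a ratio of 0.69. Among receptors, *Fgfr1* had 2.07, *Pdgfrb* 2.02, *Egfr* 1.69, *Erbb2* 1.61, *Tek* 1.53, *Met* 1.45 and *Ephb1* 1.20. *Igf1r* at 0.96, *Insr* at 0.35, *Ret* at 0.13 and *Kit* at -0.26 did not reach the limit, and *Erbb3* and *Erbb4* were not well above background on any array. Of the cytoplasmic partners, *Fhl2* had 1.61, *Rnd1* 1.21, *Shc1* 0.45 and *Grb2* -0.31, while *Ptk2*, which encodes focal adhesion kinase, did not pass the flags on the Wt MSC array.

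Between the CD8+ T arrays 15 of the 21 were measured, 3 passed the limit upward, against 2.66% of all measured genes, and 0 downward, with a median of 0.19. The 3 were *Ret* at 2.17, *Pdgfrb* at 1.68 and *Egfr* at 1.32. As a bound, *Grb10* by 1 of 2 probes was at least 2.30-fold higher in *Sipa1*-/- CD8+ T cells. One *Erbb2* probe was at least 3.03-fold higher there, and the other, measured on both arrays, had 0.97. Of fibroblast marker genes, 12 of 14 passed the same limit upward in CD8+ T cells, where 2.66% of all measured genes did. Their median was 1.68. In MSCs 7 of 13 fibroblast genes were at least 2-fold higher, against 19.3% of all measured genes, with a median of 1.14. The brightest on the Wt array, *Col1a2* and *Sparc*, had 0.35 and 0.80. The part of stromal RNA in the values of the *Grb7* partners was not tested.

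**Figure D3:**
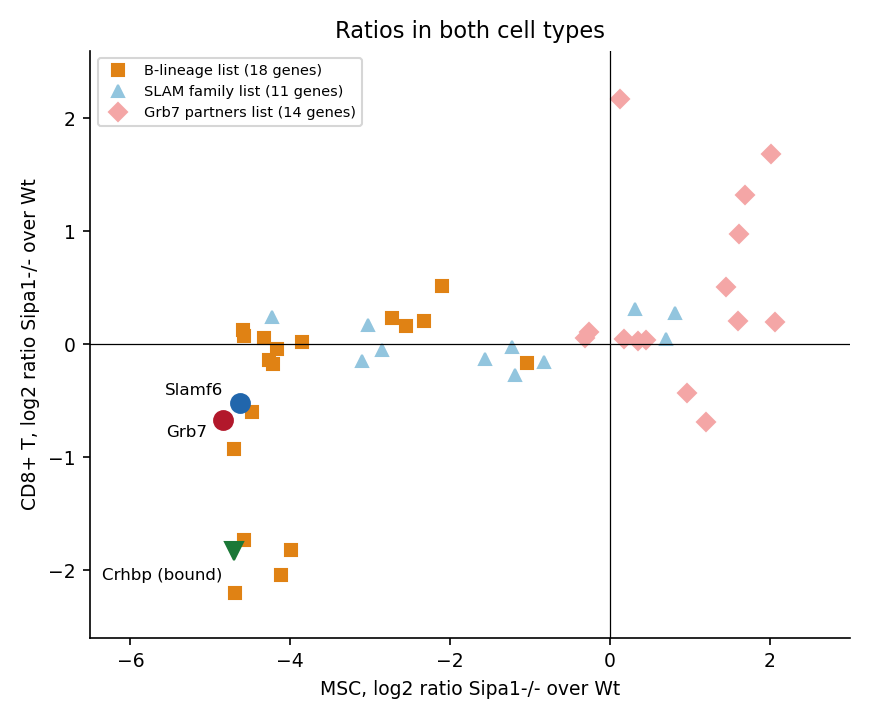
Log2 ratio of *Sipa1*-/- over Wt in CD8+ T cells against that in MSCs, for *Grb7*, *Slamf6* and the lists of B-lineage markers, SLAM family genes and *Grb7* partners, 1 point per gene measured in both pairs of arrays, with *Crhbp* (triangle) drawn in CD8+ T cells at its bound of 3.56-fold. The SLAM genes spread along the horizontal axis near 0 in CD8+ T cells, and the *Grb7* partners lie mostly to the right of 0.

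On the chromosomes, the genes within 5 places of each of the 3 included both lower and higher ones in MSCs. Beside *Grb7*, *Mien1* on one side had a ratio of -0.19 in MSCs, and *Erbb2*, the next gene, was at least 2-fold higher at 1.61. On the other side *Ikzf3*, which encodes the lymphoid transcription factor Aiolos, had -1.65 and *Zpbp2* had -2.68, followed by *Ormdl3* at 0.70 and *Lrrc3c* at 0.14. The *Ikzf3* value is a mean of 3 probes that differed, and it is counted below by that mean. Its brightest probe had 0.42 in Wt and -2.80 in *Sipa1*-/- MSCs. The others had -3.58 and -4.41, and -2.45 and -3.34, each short of 2-fold. Of 10 neighbors, 9 were measured in MSCs. Of these, 2 were at least 2-fold lower and 1 at least 2-fold higher, against 11.3% and 19.3% of all measured genes. In CD8+ T cells 0 of 9 passed the limit, against 1.40% lower and 2.66% higher over all measured genes. An *Erbb2* probe that was not well above background in Wt CD8+ T cells was at least 3.03-fold higher in *Sipa1*-/-.

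Beside *Crhbp*, 7 of 10 neighbors were measured in MSCs. There 0 were at least 2-fold lower and 2 at least 2-fold higher, against 11.3% and 19.3% of all measured genes. *Aggf1*, adjacent on one side, had a ratio of -0.50, and *S100z*, adjacent on the other, was not well above background on the MSC arrays. The thrombin receptor gene *F2r* had 2.67 and *Wdr41* 1.02. Between the CD8+ T arrays the protease-activated receptor genes *F2rl1* and *F2rl2* had ratios of -2.96 and -2.25, with values of 0.17 and -0.53 in MSCs. They were 2 of 7 measured neighbors past the limit there, both downward, against 1.40% of all measured genes at least 2-fold lower. *S100z*, and *Pde8b* by 1 of 2 probes, were not well above background on the *Sipa1*-/- CD8+ T array. As bounds they were at least 2.14- and 2.61-fold lower there than in Wt.

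Beside *Slamf6* the SLAM receptor genes themselves are neighbors, since the family lies in a cluster. *Slamf7* and *Cd48*, at -4.23 and -3.10, were 2 of 8 measured neighbors at least 2-fold lower in MSCs, against 11.3% of all measured genes. *Slamf1*, on the same side, was lower by its bound of at least 3.10-fold, and *Cd84*, adjacent there, had -0.83, while *Vangl2*, adjacent on the other, had -0.80. Beyond it *Nhlh1* had 1.02, *Ncstn* 0.56, *Copa* 0.62 and *Pex19* 0.07. None of the 9 neighbors measured in CD8+ T cells passed the limit, which 1.40% of all measured genes passed downward and 2.66% upward.

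**Figure D4:**
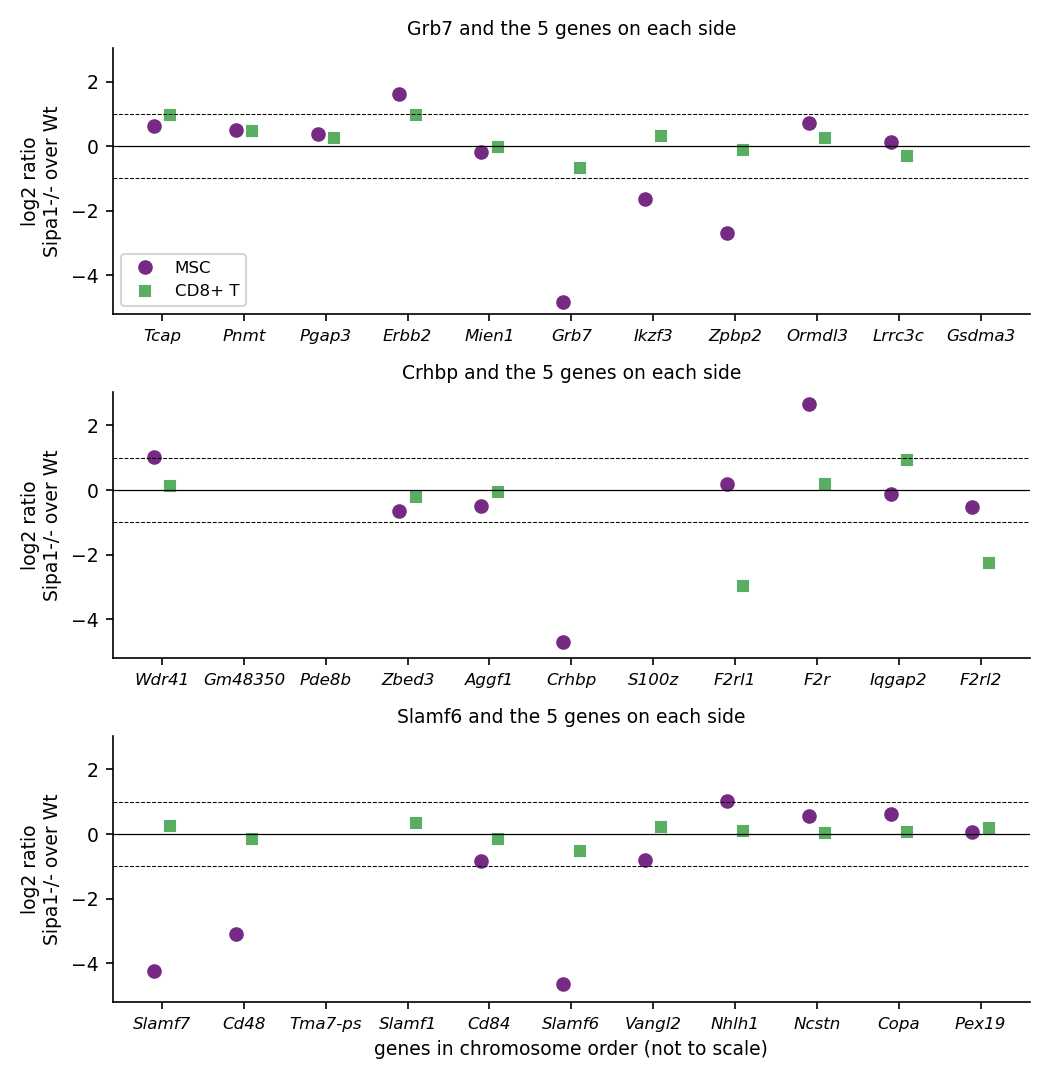
Log2 ratios of *Sipa1*-/- over Wt in MSCs (circles) and CD8+ T cells (squares) for *Grb7*, *Crhbp* and *Slamf6* and the 5 genes on each side, in chromosome order and not to scale, with dashed lines at 2-fold and no point where a gene was not measured. The 3 were selected on their MSC ratio, so each being the lowest of its row in MSCs follows from the choice. In the *Slamf6* row *Slamf7* is nearest to it. In CD8+ T cells *F2rl1* and *F2rl2* beside *Crhbp* lie lowest of the points drawn.

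Markers of other cells were read beside the 3 genes. In MSCs all 19 measured of 20 B-lineage genes were at least 2-fold lower in *Sipa1*-/-, against 11.3% of all measured genes. Their ratios ran from -5.80 to -1.03, with a median of -4.22. The 3 genes lay within that range, but their low MSC ratios were fixed by their selection. The log2 of the summed level of the B-lineage genes was 9.65 in Wt against 5.62 in *Sipa1*-/- MSCs. For the CD8+ T arrays it was 5.44 against 5.10. On the Wt MSC array all 20 had a probe well above background, while the recombinase gene *Rag1* was not well above background on the other 3 arrays. Among the most intense on the Wt MSC array were *Vpreb1*, *Vpreb3*, *Cd79b* and *Blnk*, with ratios from -4.22 to -3.99.

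In CD8+ T cells 4 of 18 measured B-lineage genes were at least 2-fold lower, against 1.40% of all measured genes, with a median of -0.09. The 4 were *Igll1*, *Vpreb1*, *Vpreb3* at -1.82 and *Vpreb2*, the surrogate light chain genes and the related *Vpreb3*. *Cd79b* had -0.04 and *Blnk* -0.18, so the list did not move as a whole there. Common leukocyte genes moved in MSCs too, with 13 of 16 at least 2-fold lower, against 11.3% of all measured genes. Their median was -1.99 and their summed levels were 7.72 in Wt and 5.83 in *Sipa1*-/-. Of the same 16 genes, 0 passed the limit in CD8+ T cells. The part of B-lineage or other leukocyte RNA in the values of *Grb7*, *Crhbp* and *Slamf6* was not tested, and in bulk samples fewer cells of a type and less RNA per cell cannot be told apart.

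T-cell genes did not follow *Slamf6* as a list in MSCs. Of 13 measured, 4 were at least 2-fold lower and 3 at least 2-fold higher, against 11.3% and 19.3% of all measured genes. The median was 0.56. *Cd2* at -3.52 and *Lat* at -2.69, the most intense on the Wt MSC array, were among the lower, while *Cd3e* had 0.66. Of the remaining lists, the counts lower and higher by 2-fold in MSCs were 1 and 0 of 6 NK cell genes, 1 and 5 of 11 blood progenitor genes, 1 and 2 of 6 plasmacytoid dendritic cell genes, 1 and 2 of 6 endothelial genes, 0 and 0 of 7 erythroid genes, 0 and 2 of 7 granulocyte genes and 0 and 3 of 6 macrophage genes. These counts are to be read beside the shares of all measured genes given for the T-cell list. In CD8+ T cells 1.40% of all measured genes were at least 2-fold lower and 2.66% higher by as much. There the erythroid genes had 5 of 6 lower and the granulocyte genes 4 of 7 lower. So were 1 of 6 NK cell and 1 of 10 blood progenitor genes, while 0 of the T-cell, plasmacytoid dendritic cell, endothelial and macrophage genes passed the limit.

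**Figure D5:**
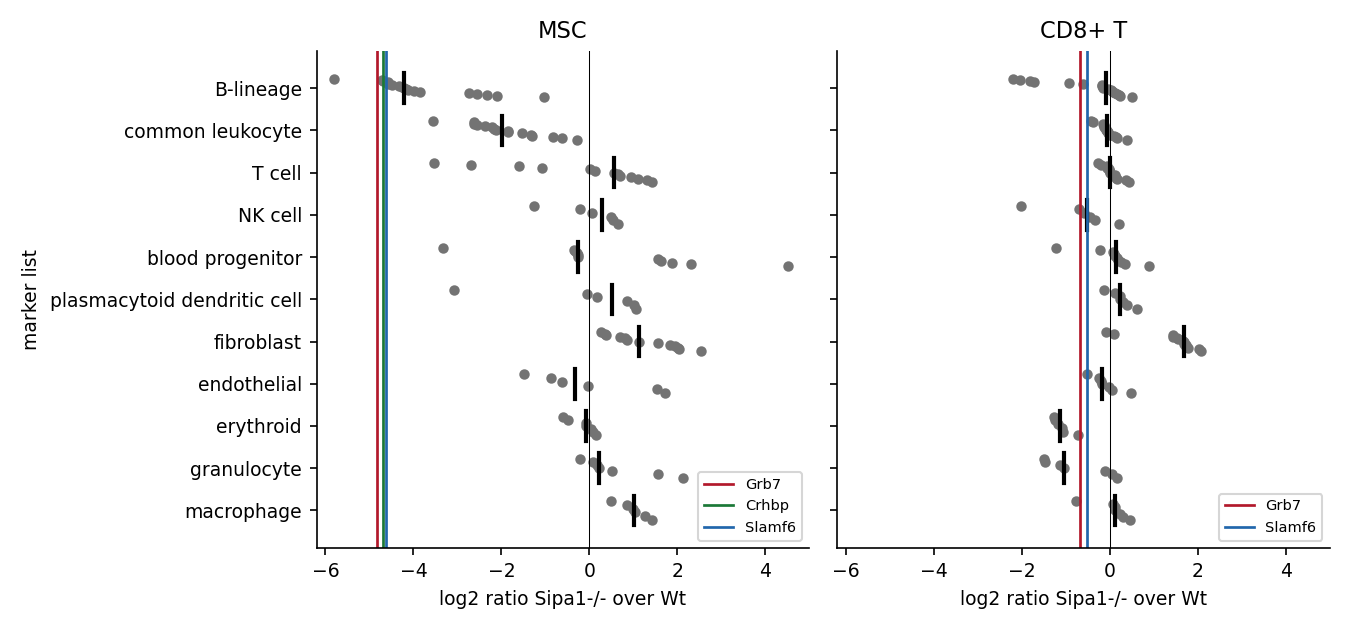
Log2 ratios of *Sipa1*-/- over Wt of the measured genes of 11 marker lists (points, with the median as a black bar) in MSCs and CD8+ T cells, with vertical lines at the ratios of *Grb7*, *Crhbp* and *Slamf6*. In MSCs, where the 3 were selected on their ratio, their lines fall among the B-lineage genes. In CD8+ T cells the lines of *Grb7* and *Slamf6* lie at -0.67 and -0.52. There *Crhbp* has no line because it was not measured on both arrays.

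Beyond the lists, 59 genes were at least 16-fold lower in *Sipa1*-/- MSCs, including the 3 genes and 12 of the B-lineage list. Of these, 46 were measured in CD8+ T cells, *Grb7* and *Slamf6* among them. There 9 of the 46 were at least 2-fold lower, against 1.40% of all measured genes. The median of the 46 was -0.23, against -0.02 over all measured genes. The CD8+ T ratios of *Grb7* and *Slamf6* were both below that median.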

How the data were processed

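RNA of sorted tumor MSCs and CD8+ T cells was hybridized to Agilent SurePrint G3 mouse arrays, 1 per cell type and genotype, all on 1 slide and in 1 scan. The deposited intensities are the Feature Extraction processed signals, to which the authors applied the software's background subtraction and no normalization between arrays. The file headers name version 12.0.3.1 of the software and the submitters' processing notes 9.1. The authors' value table holds the same intensities times 1 constant per array, with 100% of spots matching to 0.1%, and the origin of the constants is not stated.

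Levels were log2 intensity minus the array's 75th percentile over noncontrol spots. Spots had to pass the study's flags on both arrays of a pair (not saturated, uniform spot and background, positive and well above background), and spots of a probe, then probes of a gene, were averaged. Symbols came from accessions matched to RefSeq GRCm38.p6, which named 57.6% of the noncontrol spots. A log2 ratio of 1 was the limit for counts. A probe not well above background was replaced by the lowest signal that was, giving a bound. The script was tested on simulated data.

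Named were the 3 genes, *Sipa1*, their pathway lists and 5 neighbors on each side, the 10 largest falls in MSCs, the 5 genes most alike for each, the 5 most intense B-lineage and 2 most intense genes of other lists, and defining markers, apart from genes that are not reported here. Members and lists were chosen with earlier results of these data known. The alternatives changed the flags (1 array of a pair, or none), the scaling (equal medians, quantile, the authors' table), the background (normexp, offset 50), the probe (brightest) or the genes (above median signal). Software was R 4.3.3 with limma 3.58.1 and Python 3.11.15 with pandas 2.3.3 and numpy 2.4.6.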

Additional observations from a re-analysis of the deposited data

How the results depend on the processing

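The ratios of *Grb7*, *Crhbp* and *Slamf6* kept their sign under each alternative that gave a value. With equal medians the MSC ratios were -4.97 for *Grb7*, -4.84 for *Crhbp* and -4.77 for *Slamf6*, and the CD8+ T ratios -0.82 for *Grb7* and -0.67 for *Slamf6*. With the authors' scaling they were -4.63, -4.49 and -4.42 in MSCs and -0.54 and -0.39 in CD8+ T cells, in the same order. With normexp they were -4.47, -4.19 and -3.57 in MSCs and -0.44 and -0.43 in CD8+ T cells. Quantile normalization gave -4.79 for *Crhbp* and -4.75 for *Slamf6* in MSCs, and the brightest probe -0.42 for *Slamf6* in CD8+ T cells. For *Crhbp* in CD8+ T cells the main setting gives only the bound, and flags on at least 1 array and no flags each gave -2.02. Equal medians shifted the median ratio over the whole table by -0.14 (MSCs) and -0.15 (CD8+ T cells), and the authors' scaling by 0.21 and 0.13.

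In CD8+ T cells the count of genes at least 2-fold lower was 371 with flags on at least 1 array, 633 without flags, 70 among genes above the median signal and 96 with normexp, against 201. The count at least 2-fold higher was 685, 1059, 67 and 98, against 381. Restricting to genes above the median signal gave 901 lower and 1307 higher in MSCs, and normexp gave 1804 higher, against 1733 lower and 2958 higher. The first 2 changes add or remove dim genes by construction, and the cause was not tested for normexp or the rescalings. No paired analysis was possible because a condition is a single array. No array could be left out for the same reason. Signal over background limits *Crhbp* in *Sipa1*-/- CD8+ T cells and the ligand genes of its system.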
